A study of Mus musculus with 61 samples.

Results

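These data describe how much pools of 50 cells, sorted from the same culture for the same fluorescent reporters, differed from each other in gene expression. The members were all biological replicates of a sort class for which at least 2 technical repeats each held over 1000000 gene counts, with a repeat taken as 1 pool of 50 sorted cells. There were 17 such replicates of 33 in the series, with 43 of its 61 libraries: 8 replicates had 2 pools and 9 had 3. Of the others, 14 replicates had 1 library and 2 were lost to the depth limit. The members fell into 8 replicates (20 libraries) with the Ngn3 reporter and 9 replicates (23 libraries) without it.

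All pools came from pancreatic ductal organoids of C57BL/6 mice at passage 2, infected with lentiviral vectors and given doxycycline for 8 days. Each vector drove 1 factor from a doxycycline-inducible promoter together with its own fluorescent protein, GFP for Ngn3, LSSOrange for Pdx1 and tdTomato for MafA, and a further vector carried the transactivator under a PGK promoter. Every culture received Ngn3, either wild-type (WT culture) or the phospho-mutant 6SA form, in which 6 serines are changed to alanine (6SA culture), so the cells without the Ngn3 reporter came from the same infected cultures and still carried Pdx1, MafA or both. The sort classes with the reporter were Ngn3-Pdx1, Ngn3-MafA and Ngn3-Pdx1-MafA, and those without it were Pdx1, MafA and Pdx1-MafA. The members came from 3 cultures. Replicate 1 of the 6SA culture and replicate 1 of the WT culture each gave 3 replicates with the reporter and 3 without, and replicate 2 of the 6SA culture gave 2 and 3. The paper derived the organoids from adult pancreatic tissue. The sex and exact age of the animals are not given in the sources used here. The sources call the repeats technical and do not say in words that each repeat was a separate sort, so a difference between repeats can hold cells, library preparation and sequencing together.

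Ngn3 (gene Neurog3) is the transcription factor that commits progenitors of the embryonic pancreas to the endocrine lineage. It switches on Neurod1, Insm1 and other endocrine transcription factors, and the cells then make a secretory granule apparatus and, mostly 1 per mature cell type, a hormone: insulin in β cells, glucagon in α cells, somatostatin in δ cells and ghrelin in ε cells. Pdx1 and MafA are transcription factors of the β cell. A pool of a small number of cells averages over them, so a gene made strongly by a minority of cells differs between pools more than a gene made evenly by all, while every pool also differs by the chance of capture and amplification.

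The libraries held 1373561 to 7440620 gene counts (median 5518772) and 14228 to 18794 detected genes. Spike-in RNA took 0.0681 to 0.315% of counts in pools with the reporter (median 0.132%) and 0.0442 to 0.122% in those without (median 0.0738%). The level that 3 counts can show ran from 0.403 to 2.18 counts per 1000000 (CPM), which covers counting error only, since amplified reads are not independent molecules. The 7 duct markers summed here (Sox9, Krt7, Krt19, Epcam, Spp1, Muc1 and Cftr) came to 8576 to 31184 CPM in pools without the reporter and to 1276 to 17207 CPM in those with it. Endocrine markers (Neurod1, Chga, Chgb, Insm1, Pax6 and Nkx2-2) summed to 1289 to 16699 CPM with the reporter and to 9.60 CPM at most without. Neurog3 itself was at 25.0 to 302 CPM in every pool with the reporter and at 1.22 CPM at most in every pool without, as the labels have it. The 5 acinar markers summed here reached 7.84 CPM. The 4 immune markers summed here (Ptprc, Cd68, Csf1r and Cd3e) were over 10 CPM in 12 of 20 pools with the reporter (up to 71.3 CPM) and in 22 of 23 without (up to 40.6 CPM). No pool had more than 2 of the 4 detected, and 2 of them were at 0 in every pool without the reporter. Mesenchymal markers were over 10 CPM in 1 pool, at 204 CPM, and endothelial markers in 1 other pool, at 81.2 CPM, and both pools had the reporter.

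The pool difference of a gene in a replicate is the mean absolute difference in log2 CPM between its pools, for genes with 50 or more counts summed over the pools. The first question was whether pools with the Ngn3 reporter differed more than pools without. The median gene differed by 0.60 ± 0.19 (SD, n = 8 replicates) on the log2 scale with the reporter, a 1.52-fold difference, and by 0.41 ± 0.06 (SD, n = 9) without, a 1.33-fold difference. The means differed by 0.19 (two-sided exact permutation test, p = 0.0144). Counting noise alone would give 0.11 to 0.18 in these replicates, so all replicates lay above it. On average 26.3% of measured genes differed over 2-fold between pools with the reporter and 12.7% without.

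**Figure D1:**
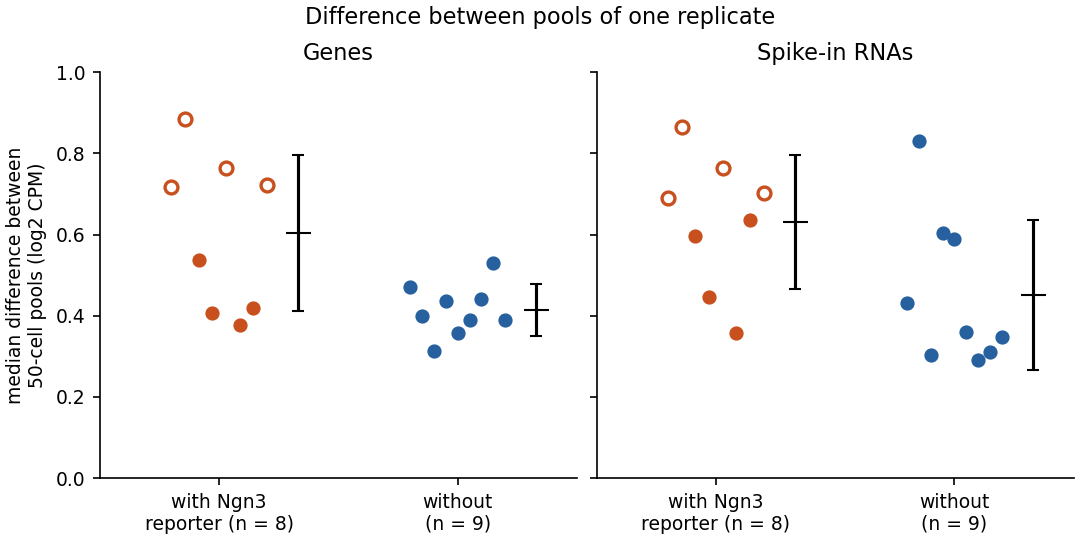
Median difference between pools (log2 CPM, y axis) of genes (left) and spike-in RNAs (right) in each replicate with and without the Ngn3 reporter. Each circle is 1 replicate, open circles are the 4 replicates whose short genes shifted over 2-fold between pools, and the black marks are means with SD (genes 0.60 and 0.41, spike-ins 0.63 and 0.45).

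The 8 replicates with the reporter did not form 1 group. The median pool difference was 0.89 in 6SA Ngn3-MafA replicate 2, 0.76 in 6SA Ngn3-Pdx1-MafA, 0.72 in WT Ngn3-Pdx1-MafA and 0.72 in 6SA Ngn3-MafA replicate 1. It was 0.54 in 6SA Ngn3-Pdx1 replicate 1, 0.42 in WT Ngn3-Pdx1, 0.41 in 6SA Ngn3-Pdx1 replicate 2 and 0.38 in WT Ngn3-MafA. Of the lower 4, WT Ngn3-Pdx1, 6SA Ngn3-Pdx1 replicate 2 and WT Ngn3-MafA lay within the range of the replicates without the reporter, 0.31 to 0.53. Replicate 1 of 6SA Ngn3-Pdx1 (0.537) lay just above the highest of them (0.529). In the upper 4, genes with under 1000 exonic bases moved together against genes with 4000 or more: the gap between both medians changed between pools by 7.88-fold in 6SA Ngn3-Pdx1-MafA, 5.43-fold in 6SA Ngn3-MafA replicate 2, 4.69-fold in WT Ngn3-Pdx1-MafA and 2.18-fold in 6SA Ngn3-MafA replicate 1. In the other 13 replicates it changed by 1.12 to 1.64-fold. In these 4 replicates depth moved as well. The pool with the highest short genes was the shallowest in 6SA Ngn3-MafA replicate 2 (1403177 against 7440620 gene counts). This also held in 6SA Ngn3-Pdx1-MafA (2685341 against up to 6238148). In WT Ngn3-Pdx1-MafA and 6SA Ngn3-MafA replicate 1 that pool was not the shallowest (3374929 against 1948001, and 5589867 against 3307278). There the pool with the lowest short genes was the deepest (5931521 and 6371962). Depth also moved where the shift was small. Pools lay 4.02-fold apart in depth in MafA cells of the second 6SA culture (shift 1.12-fold). They lay 2.00-fold apart in 6SA Ngn3-Pdx1 replicate 2 (shift 1.24-fold). Reads that did not align moved too, at 29.4% of all reads in the table in the pool of 6SA Ngn3-MafA replicate 2 with high short genes against 19.5% in the other, and the spike-in share was 0.274 and 0.0965%.

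**Figure D2:**
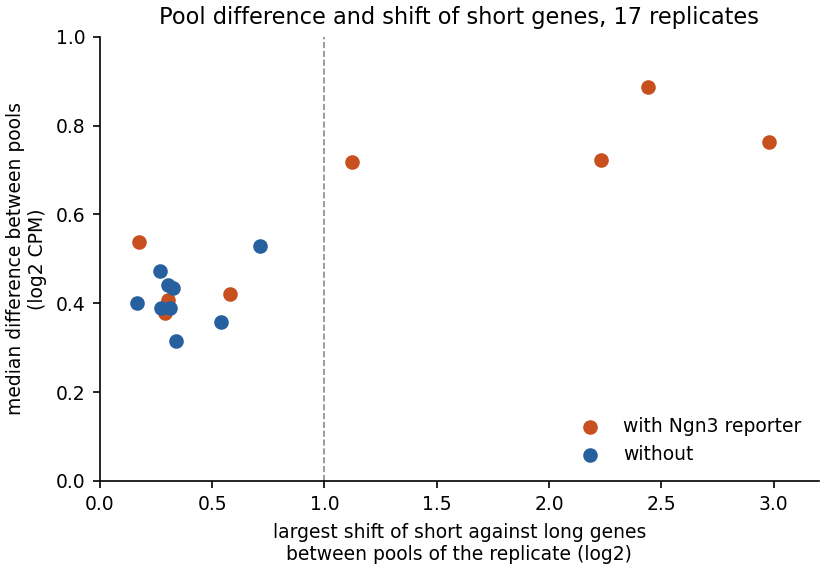
Median pool difference of each of 17 replicates (log2 CPM, y axis) against the largest shift of short against long genes between its pools (log2 scale, x axis). The dashed line marks a 2-fold shift, and the 4 replicates past it, all with the reporter, have the 4 largest pool differences (0.72 to 0.89).

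Without these 4 replicates, which were singled out after their values were seen, the pool difference was 0.44 with the reporter (n = 4) and 0.41 without (n = 9), and the difference of 0.02 was not larger than the spread between replicates (two-sided exact permutation test, p = 0.607). On genes of 4000 or more exonic bases alone in all 17 replicates the difference was 0.15 (exact permutation p = 0.0254). The part that fragment length, RNA quality or amplification had in the shift of short genes was not tested. Within cultures the difference between replicates with and without the reporter was 0.22 in both 6SA cultures and 0.14 in the WT culture, and the ranges lay apart in the first 6SA culture only.

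Spike-ins are RNAs added to the lysate and not taken from cells, and their difference gives the spread of library preparation and sequencing. Set against the 200 genes nearest in counts, genes exceeded spike-ins by 0.03 on average (two-sided exact sign-flip permutation test over 17 replicates, p = 0.413), with genes the more variable in 10 of 17. The spike-in difference itself ran from 0.29 to 0.86 over 15 to 21 spike-ins per replicate and was 0.63 ± 0.17 (SD, n = 8) with the reporter and 0.45 ± 0.18 (SD, n = 9) without. The contrast of reporter against no reporter on spike-ins alone was 0.18 (exact permutation p = 0.0547), and on genes minus spike-ins it was -0.07 (exact permutation p = 0.354). A larger difference of the median gene than of added RNA was thus not detected, and the genes described next are those far above that median.

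Pools of different cultures were set against pools of the same culture. For the 5 sort classes with 2 member replicates, the median gene differed between pools of different 6SA cultures by 0.26 more than between pools of the same culture, in 5 of 5 classes (exact sign-flip permutation p = 0.0625, the smallest that 5 classes allow). The 5 classes come from the same 2 cultures, so they are not independent and the test speaks of 1 pair of cultures. The share of genes that differed more between cultures was 65.6 to 71.8% in 4 classes and 42.3% in Ngn3-MafA cells. The ratio of both differences was 1.78 in Ngn3-Pdx1 and 1.73 in Pdx1 cells, and 1.07 in Ngn3-MafA cells, where pools of the same culture differed by 0.81 and pools of different cultures by 0.87.

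Because low genes differ more between pools by counting alone, each gene was also set against the 200 genes nearest in level in the same replicate, which gives its level-adjusted difference. With the reporter 2802 of 12255 genes (22.9%) had a mean pool difference over 1, that is over 2-fold, and 1109 (9.05%) a level-adjusted difference over 0.5. Without it these were 934 of 11621 (8.04%) and 399 (3.43%). Among reporter replicates the genes with the largest level-adjusted difference were Gip (4.44), Serpina3n (2.63), Bgn (2.62), Slc38a5 (2.40), Gpr37 (2.29), Cartpt (2.08), Cd177 (2.06), Rpl36-ps3 (2.01), Gm23153 (1.94) and Il11 (1.93). Gip and Cartpt encode peptide hormones, Slc38a5 an amino acid transporter, Gpr37 a receptor and Bgn the matrix proteoglycan biglycan. Rpl36-ps3 is a pseudogene whose reads may be shared with its parent gene, and it is uncertain. The 5 genes that varied least for their level were Gm7707, Gm12804, Gm14121, Gm5145 and Kpna2 (-0.89 to -0.68). Most of them carry provisional names and are uncertain for the same reason, while Kpna2 encodes a nuclear import receptor.

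The islet and gut hormones varied more than their level in 7 of the 8 that were measured in at least 4 replicates with the reporter, of 24 on the list (87.5%, against 9.05% of all genes), with a median level-adjusted difference of 1.55 against 0.05 for all genes measured. Most of these hormone genes are short, with under 1000 exonic bases in 75% of the 8, and 37.5% of all 606 measured genes that short passed the same limit. In the 4 reporter replicates whose short genes shifted less than 2-fold, 6 of 8 hormones still passed it, against 8.85% of all genes, with a median of 0.84. The share of all gene counts taken by hormone transcripts was 0.557, 3.16 and 11.1% in the 3 pools of 6SA Ngn3-Pdx1-MafA, and 10.7, 7.01 and 1.85% in those of WT Ngn3-Pdx1-MafA. It was 3.05 and 0.692% in WT Ngn3-Pdx1, and 0.960 and 0.940% in 6SA Ngn3-Pdx1 replicate 2, whose pools were alike. In pools without the reporter it was 0.0139% at most. In pools of sorted cells, fewer cells that make a hormone and less of its RNA per cell cannot be told apart.

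**Figure D3:**
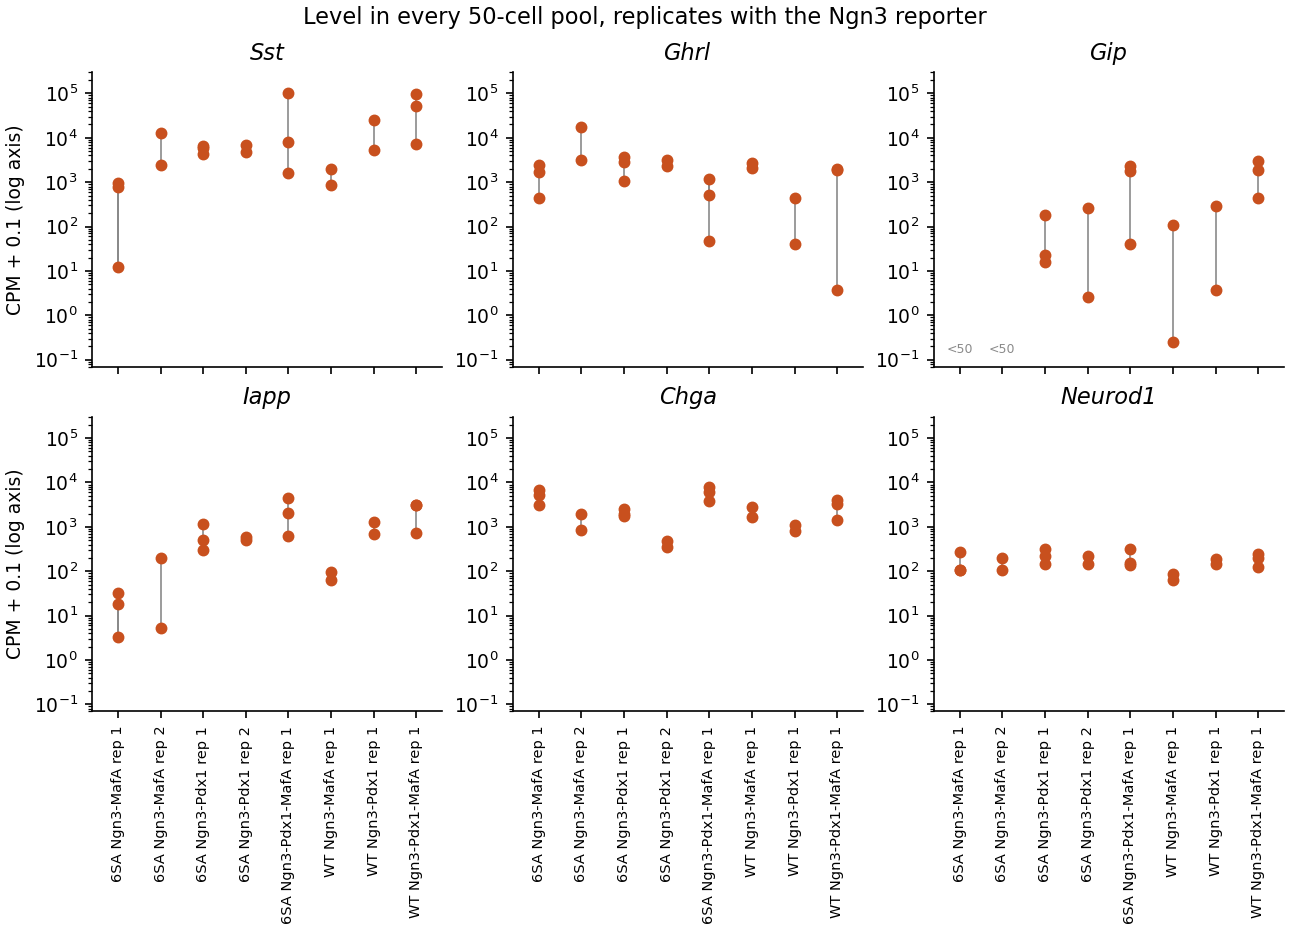
CPM + 0.1 (log axis) of the hormone genes Sst, Ghrl, Gip and Iapp and of Chga and Neurod1 in every pool of the 8 replicates with the Ngn3 reporter. Each point is 1 pool, lines join pools of the same replicate, and <50 marks replicates with under 50 counts of the gene. Pools lie far apart for Gip (2.53 and 260 CPM in 6SA Ngn3-Pdx1 replicate 2) and within 1.37 to 2.82-fold for Chga.

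Gip encodes the gut incretin hormone GIP (chromosome 11, 96024545 to 96030831, plus strand, GRCm38). It had the largest mean level-adjusted difference of the 12255 genes measured in at least 4 replicates with the reporter. Its 2 pools in 6SA Ngn3-Pdx1 replicate 2 were at 260 and 2.53 CPM, a 103-fold difference, and those in WT Ngn3-Pdx1 at 296 and 3.63 CPM, 81.4-fold. In WT Ngn3-MafA the counts were 618 and 1, or 111 and 0.152 CPM. In 6SA Ngn3-Pdx1 replicate 1 the pools were at 186, 23.4 and 15.7 CPM, so 1 pool of 3 stood above the others. None of these 4 replicates had a shift of short genes over 2-fold, and over them the level-adjusted difference of Gip was 5.56. In the triple-factor replicates Gip was at 40.0, 2265 and 1823 CPM in 6SA cells and at 3019, 1923 and 446 CPM in WT cells.

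Sst, the somatostatin gene of δ cells (chromosome 16, 23889573 to 23890958, minus strand), reached the highest level of any hormone transcript in single pools, though Gal was above it in all 3 pools of 6SA Ngn3-MafA replicate 1, and its pools lay apart in some replicates and close in others. The 3 pools of 6SA Ngn3-Pdx1-MafA were at 1643, 8114 and 101621 CPM, a 61.9-fold range, and those of WT Ngn3-Pdx1-MafA at 96633, 51572 and 7237 CPM, a 13.4-fold range. In 6SA Ngn3-MafA replicate 1 they were at 948, 12.2 and 783 CPM, where 1 pool of 3 was 77.6-fold below the highest. These 3 replicates are among the 4 with the shift of short genes. In WT Ngn3-Pdx1 the pools were at 24709 and 5278 CPM, 4.68-fold apart. They were at 5882, 4378 and 6710 CPM in 6SA Ngn3-Pdx1 replicate 1 and at 4880 and 6959 CPM in replicate 2, within 1.53-fold of each other.

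Ghrl, which encodes ghrelin (chromosome 6, 113716119 to 113719880, minus strand), was at 2034, 1844 and 3.55 CPM in WT Ngn3-Pdx1-MafA, so that 1 pool of 3 was 573-fold below the highest. In WT Ngn3-Pdx1 it was at 451 and 40.6 CPM (11.1-fold), and in 6SA Ngn3-Pdx1-MafA at 46.1, 1182 and 525 CPM (25.6-fold). In WT Ngn3-MafA it was at 2103 and 2708 CPM, within 1.29-fold. The WT Ngn3-Pdx1 pool with more Ghrl also had more Sst, Gip and Pyy, which encodes peptide YY (215 and 40.8 CPM). The pool of WT Ngn3-Pdx1-MafA with the least Ghrl likewise had the least Sst, Gip and Pyy (8465, 627 and 99.0 CPM), and it was the pool with the lowest short genes.

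Hormones that few replicates expressed came mostly from single pools. Gcg, the glucagon gene, reached 50 counts in 1 of 8 replicates, where 1 pool of 6SA Ngn3-MafA replicate 2 held 4269 counts (557 CPM) and the other 0, at least 245-fold apart. In the same replicate Ppy, the pancreatic polypeptide gene, was at 0.913 and 76.6 CPM (83.9-fold), high in the pool that had no Gcg. Cck, the cholecystokinin gene, was at 24.7, 500 and 0.852 CPM in WT Ngn3-Pdx1-MafA (586-fold) and at 22.1 CPM against 0 counts in WT Ngn3-MafA, at least 48.5-fold apart. Ins1, which encodes insulin, was measured in the 2 triple-factor replicates only. It was at 215, 448 and 17.7 CPM in WT cells (25.3-fold) and at 43.3, 56.2 and 160 CPM in 6SA cells (3.71-fold). Ins2 was low in the same pools, at 2.41 to 25.3 CPM.

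Other secreted peptides also lay apart between pools in some replicates. Cartpt, the gene of the CART neuropeptide, was at 2.74, 342 and 489 CPM in 6SA Ngn3-MafA replicate 1, a 179-fold range in which the lowest Cartpt pool was the highest for Sst. Gal, the galanin gene, was at 3278, 292 and 1193 CPM in the same pools (11.2-fold) and at 133 and 34.6 CPM in 6SA Ngn3-Pdx1 replicate 2 (3.84-fold). Iapp, which encodes the amylin peptide stored with insulin, was at 627, 2089 and 4567 CPM in 6SA Ngn3-Pdx1-MafA and at 576 and 497 CPM in 6SA Ngn3-Pdx1 replicate 2 (1.16-fold). Over the 20 pools, as deviations from the replicate mean of log2(CPM + 1), Sst moved with Iapp (r = 0.80) and Pyy (r = 0.72), and Gip with Gal (r = 0.69). Sst and Cartpt showed r = 0.12. These correlations describe pools that share libraries, depth and the shift of short genes.

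The genes of the apparatus that makes and releases hormones varied at or slightly above the typical gene, with list medians below that of the hormones (1.55). Of the 31 measured of 32 granule and secretion genes, 4 had a level-adjusted difference over 0.5 (G6pc2, Tph1, Chgb and Resp18, list median 0.15, 12.9% against 9.05% of all genes), and the 20 measured of 25 endocrine transcription factors had a median of 0.23, against 0.05 for all genes. Chga, the granule protein chromogranin A, was at 347 to 8046 CPM in the 20 pools, yet pools of the same replicate lay within 1.37 to 2.82-fold. Neurod1, a direct Ngn3 target, was at 65.0 to 317 CPM with ranges of 1.32 to 2.57-fold, and Insm1, a zinc finger factor of endocrine progenitors, at 39.7 to 142 CPM with ranges of 1.28 to 2.00-fold. An exception was Chgb, the granule protein chromogranin B, which stood at 2824 and 173 CPM in WT Ngn3-MafA (16.3-fold), where Chga was at 2773 and 1662 CPM.

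Among the granule and secretion genes G6pc2 and Tph1 also lay far apart in some replicates. G6pc2, the glucose-6-phosphatase subunit of β cells, was at 2.36, 7.67 and 73.7 CPM in 6SA Ngn3-Pdx1 replicate 1 (31.3-fold) and at 301, 21.5 and 0.457 CPM in 6SA Ngn3-Pdx1-MafA, where the lowest value was 1 count. Tph1, the serotonin-synthesis enzyme, was at 381, 41.2 and 147 CPM in 6SA Ngn3-MafA replicate 1 (9.26-fold). In the 6SA triple-factor pools Tph1 was at 17.9, 44.6 and 193 CPM (10.8-fold), highest in the pool where G6pc2 was lowest.

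Neurog3 itself differed 7.78-fold between pools of 6SA Ngn3-MafA replicate 1 (153, 25.0 and 194 CPM) and by 1.26 to 2.59-fold in the other 7 replicates. The pool of that replicate with the least Neurog3 was also the one at 12.2 CPM of Sst. Over the 20 pools of 8 replicates, deviations of Neurog3 from the replicate mean were compared with 6 other measures by permuting pools within replicates. With the mean of the granule and secretion genes Pearson's r was 0.82 (permutation p = 0.0237, adjusted over 6 relations 0.142) and Spearman's rho 0.74 (permutation p = 0.0195, adjusted 0.117), which did not pass the threshold after adjustment. Without the 2 pools farthest in Neurog3 r was 0.68 (permutation p = 0.0532), and with the list's median in place of its mean r was 0.60 and rho 0.37 (permutation p = 0.21 and 0.281). With the hormones r was 0.06 (permutation p = 0.777, adjusted 0.904) and rho -0.06, and with the endocrine transcription factors r was 0.42 (permutation p = 0.18, adjusted 0.479) and rho 0.41. With the duct genes r was -0.04, with the mitosis genes -0.34 and with the spike-in share -0.03, with adjusted permutation p from 0.479 to 0.904, and rho was 0.07, -0.22 and -0.18. Without the same 2 pools these r became -0.20 for hormones, 0.34 for endocrine transcription factors, -0.02, -0.10 and -0.35.

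Pdx1 pools lay within 1.09 to 3.09-fold of each other in replicates with the reporter, with the widest range in WT Ngn3-Pdx1-MafA (334, 221 and 108 CPM). Without the reporter the range was 1.08 to 1.98-fold in 8 of 9 replicates. In MafA cells of the second 6SA culture, not sorted for the Pdx1 reporter, it was 1 count against 66 counts (0.787 and 13.9 CPM). Mafa stayed at 9.13 CPM or less in all pools, MafA-sorted pools included, and reached 50 counts in 2 replicates.

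The genes outside the endocrine lists that varied most with the reporter often separated pools of the same sort class. Slc38a5, an X-linked gene for a glutamine transporter (chromosome X, 8271133 to 8280179, plus strand), was at 0.945 and 209 CPM in WT Ngn3-Pdx1 (221-fold), at 21.3, 443 and 642 CPM in 6SA Ngn3-Pdx1 replicate 1 (30.1-fold) and at 1799, 1979 and 1873 CPM in 6SA Ngn3-MafA replicate 1 (1.10-fold). The pools were thus even in that Ngn3-MafA replicate, and 1 of 2 pools of WT Ngn3-Pdx1 was near 0. Gpr37 was at 0 counts in 1 pool of 6SA Ngn3-Pdx1 replicate 1 and at 16.3 and 35.6 CPM in the others, at least 95.7-fold apart. Both genes were high in the same 2 pools of that replicate, which had less Krt19 (51.1 and 52.6 against 234 CPM) and Spp1 (269 and 308 against 2607 CPM), a duct keratin and the duct glycoprotein osteopontin.

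Inflammatory and antimicrobial genes varied beyond their level in 8 of 13 measured with the reporter (61.5%, median 0.90) and in 6 of 20 without (30.0%, median 0.16). Of all genes 9.05 and 3.43% did, and the list genes measured were not the same in both kinds. In the 4 reporter replicates without the shift of short genes it was 9 of 16 (median 0.83), against 8.85% of all genes. Lcn2, which encodes the iron-binding antibacterial lipocalin 2, was at 182, 25.1 and 1430 CPM in 6SA Ngn3-Pdx1-MafA (57.1-fold), at 20.1, 145 and 712 CPM in WT Ngn3-Pdx1-MafA (35.4-fold) and at 246 and 3374 CPM in WT Ngn3-MafA (13.7-fold). Without the reporter it stood at 2247 to 16349 CPM and pools of a replicate lay within 1.01 to 1.86-fold. Il1rn, the interleukin 1 receptor antagonist, was at 2.87 and 125 CPM in WT Ngn3-MafA (43.6-fold), and the complement gene C3 at 157 and 713 CPM, both higher in the pool with more Lcn2. That pool also held 168 CPM of the collagen gene Col1a1 against 1.26 CPM in the other pool (134-fold), and it is the pool whose mesenchymal markers summed to 204 CPM. Immune markers summed to 45.0 CPM in it and to 15.6 CPM in the other pool. Whether other cells in that pool had a part in this was not tested. Cd177, a cell-surface protein first known from neutrophils, was at 29.1 and 862 CPM in these pools (29.6-fold) and at 1081, 6.37 and 283 CPM in 6SA Ngn3-MafA replicate 1 (170-fold).

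**Figure D4:**
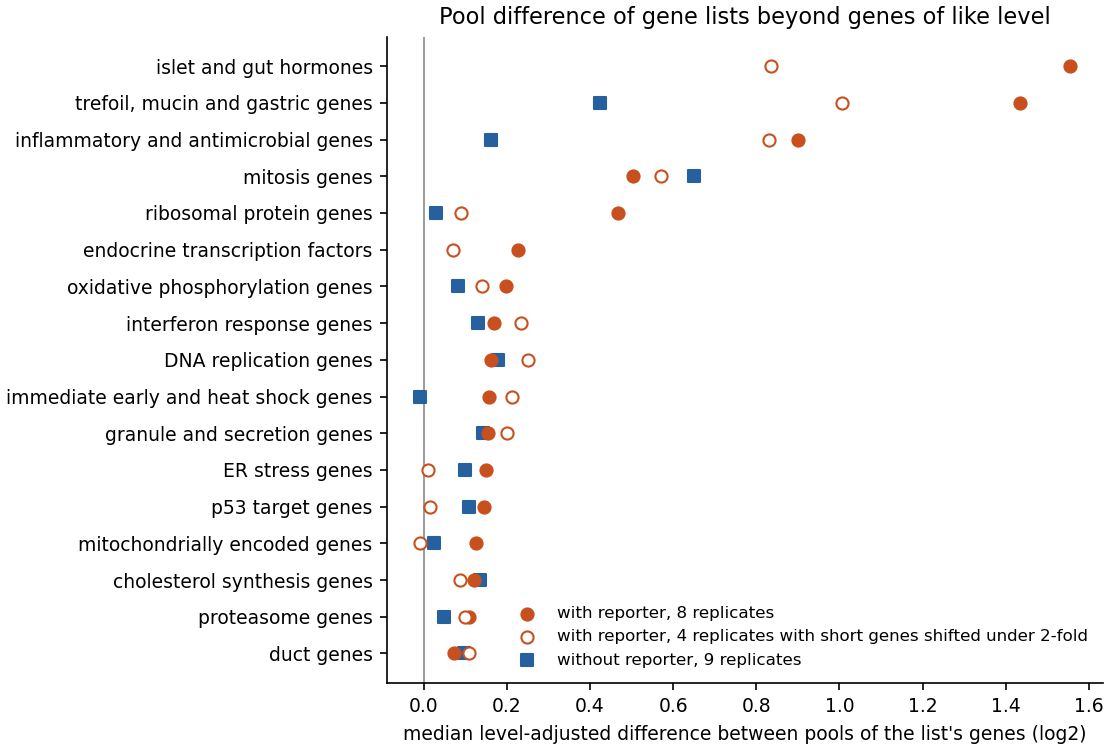
Median level-adjusted pool difference (x axis, log2 scale) of 17 gene lists. Filled circles are the 8 replicates with the Ngn3 reporter, open circles the 4 of them with a shift of short genes under 2-fold, and squares the 9 replicates without it. From filled to open circles ribosomal protein genes go from 0.47 to 0.09 and hormones from 1.55 to 0.84.

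Trefoil, mucin and gastric genes protect epithelia of the gut. With the reporter 6 of 7 measured varied beyond their level (85.7%, median 1.43), and without it 4 of 9 (44.4%, median 0.42). Of all genes 9.05 and 3.43% did, and 6 of the list were measured in both kinds of replicate. Tff2, a trefoil peptide gene, was at 2.28, 12.2 and 132 CPM in 6SA Ngn3-MafA replicate 1 (57.7-fold). Dmbt1, which encodes a mucin-like duct glycoprotein, was at 97.7, 26.8 and 2.22 CPM in 6SA Ngn3-Pdx1 replicate 1 (44.1-fold), lower in the same pools as Krt19 and Spp1. Among the duct genes 4 of 22 passed with the reporter (Ambp, Spp1, Krt19 and Car2) and 0 of 23 without, with medians of 0.07 and 0.10. The shares are 18.2 and 0%, against 9.05 and 3.43% of all genes. Car2, carbonic anhydrase 2 of duct cells, was at 12.1 and 146 CPM in WT Ngn3-Pdx1 (12.1-fold) and at 9.34 and 103 CPM in WT Ngn3-MafA (11.0-fold), and lay within 1.08 to 2.45-fold in the 9 replicates without the reporter. Cdh1, Sox9 and Krt8 were the steadiest duct genes with the reporter, with pool differences of 0.33, 0.42 and 0.45.

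Housekeeping lists varied most in some of the replicates with the shift of short genes, but not in all of them. Ribosomal protein genes passed in 15 of 36 with the reporter (median 0.47), in 2 of 36 in the 4 reporter replicates without the shift (median 0.09) and in 0 of 36 without the reporter (median 0.03). Of all genes 9.05, 8.85 and 3.43% passed in the same order, so only the first count lay above its share. Their share of counts was 0.362, 0.918 and 1.38% in the pools of 6SA Ngn3-Pdx1-MafA and 0.542 and 1.66% in 6SA Ngn3-MafA replicate 2, against 0.306 to 0.379% in 6SA Ngn3-Pdx1 replicate 1. By replicate the median of the ribosomal list was 1.36 in 6SA Ngn3-Pdx1-MafA and 1.27 in 6SA Ngn3-MafA replicate 2, but 0.15 in 6SA Ngn3-MafA replicate 1, which also had the shift, and 0.54 in WT Ngn3-Pdx1, which did not. Nuclear oxidative phosphorylation genes passed in 12 of 27, 3 of 27 and 1 of 27 in the same order. Only the first count stood well above the share of all genes (9.05, 8.85 and 3.43%). With the reporter the mean pairwise correlation over pools was 0.61 among ribosomal protein genes and 0.02 among all genes measured.

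Without the Ngn3 reporter the genes with the largest level-adjusted difference were Gp2 (2.91), Reg1 (2.55), Il1a (2.24), Krt6a (2.10), Krt16 (2.04), Cldn6 (2.02), Vim (2.01), Reg3b (1.96), Serpina7 (1.88) and Recql4 (1.88). They include secreted proteins of the injured pancreas and gut (Reg1, Reg3b), keratins of stressed epithelia (Krt6a, Krt16), a tight-junction protein (Cldn6) and the intermediate filament vimentin (Vim). The genes that varied least for their level were Gamt, Gm1866, Rsph3b, Sgo2a and Gm24357 (-0.69 to -0.57).

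Reg3b, an antibacterial lectin gene (chromosome 6, 78370657 to 78373466, plus strand), was at 25.6, 218 and 0.900 CPM in Pdx1 cells of the first 6SA culture, a 243-fold range, and at 372 and 449 CPM in Pdx1 cells of the second (1.21-fold). In Pdx1-MafA cells of the second 6SA culture it was at 277 and 1874 CPM (6.76-fold). Reg1 on the same chromosome (78422711 to 78428667, plus strand) was at 23.8 and 286 CPM in those same pools (12-fold), higher in the same pool as Reg3b. In Pdx1 cells of the first 6SA culture Reg1 was at 13.4 and 5.56 CPM and at 0 counts in the pool where Reg3b was lowest. Reg3g, a further lectin gene of the family, was at 11.5, 24.0 and 0 CPM in these 3 pools, at least 44.4-fold apart. Reg genes are close relatives, and reads that they share cannot be placed from the counts.

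Gp2, which encodes the main glycoprotein of zymogen granule membranes (chromosome 7, 119442537 to 119459285, minus strand), was at 195, 70.0 and 5.4 CPM in Pdx1 cells of the first 6SA culture (36.2-fold). In Pdx1-MafA cells it was at 99.0, 65.5 and 7.43 CPM (13.3-fold) in the first 6SA culture. In the WT culture it was at 32.4 and 50.7 CPM in 2 pools and at 0 counts in the third, at least 89.3-fold apart. It reached 50 counts in 4 of 9 replicates, all of them sorted for Pdx1. The 5 acinar markers were at 7.84 CPM or less in sum in all pools. The wider list of 24 acinar genes reached 0.0246% of counts in 1 pool of Pdx1-MafA cells of the second 6SA culture.

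**Figure D5:**
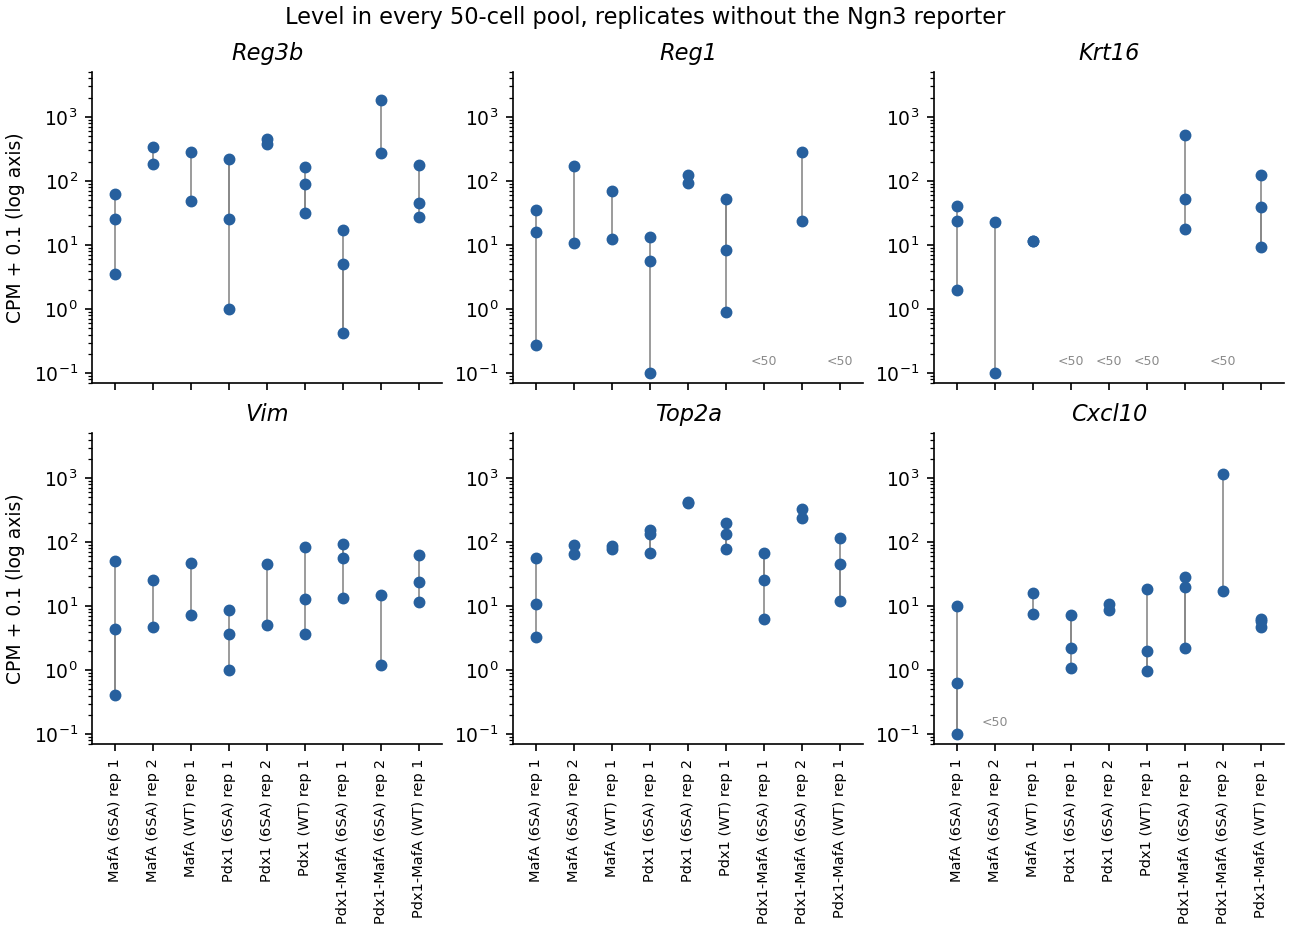
CPM + 0.1 (log axis) of Reg3b, Reg1, Krt16, Vim, Top2a and Cxcl10 in every pool of the 9 replicates without the Ngn3 reporter. Each point is 1 pool, lines join pools of the same replicate, and <50 marks replicates with under 50 counts of the gene. Reg3b spans 0.900 to 218 CPM in Pdx1 cells of the first 6SA culture, and Cxcl10 is at 1151 CPM in 1 pool of Pdx1-MafA cells of the second.

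Keratins and vimentin stood high in single pools. Krt16 was at 516, 51.6 and 17.6 CPM in Pdx1-MafA cells of the first 6SA culture (29.4-fold) and at 39.9, 9.28 and 122 CPM in those of the WT culture (13.2-fold), while in MafA cells of the WT culture its pools were at 11.5 and 11.7 CPM. Krt6a in the first of these replicates was at 55.9, 29 and 152 CPM (5.25-fold), highest in the pool where Krt16 was lowest. Vim was at 83.9, 12.9 and 3.52 CPM in Pdx1 cells of the WT culture (23.8-fold) and at 5 and 44.9 CPM in Pdx1 cells of the second 6SA culture (8.99-fold). With the reporter Vim pools were at 103 and 102 CPM in WT Ngn3-MafA (1.01-fold), though they lay 20.3-fold apart in 6SA Ngn3-Pdx1-MafA. The 5 mesenchymal markers, which do not include Vim, summed to 4.90 CPM at most without the reporter. Cldn6 was at 3.21 and 99.4 CPM in Pdx1-MafA cells of the second 6SA culture (31.0-fold), and at 0 counts and 62.3 CPM in its MafA cells, at least 26.4-fold apart.

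Among lists with at least 4 measured genes, mitosis genes had the largest share of variable members without the reporter: 17 of 24 measured passed (70.8%, against 3.43% of all genes), with a median of 0.65. With the reporter 4 of 7 measured passed (57.1%, against 9.05% of all genes, median 0.50), most of the list being too low to measure there. Top2a, the topoisomerase of condensing chromosomes, was at 57.2, 10.8 and 3.15 CPM in MafA cells of the first 6SA culture (18.2-fold) and at 402 and 431 CPM in Pdx1 cells of the second (1.07-fold). Mki67, the proliferation marker Ki-67, was at 45.7, 1.98 and 2.80 CPM in the first of these (23.1-fold) and at 211 and 208 CPM in the second (1.02-fold). The list took 0.0114, 0.0789 and 0.0107% of counts in the pools of Pdx1-MafA cells of the first 6SA culture, a 7.34-fold range. In Pdx1-MafA cells of the second 6SA culture it took 0.219 and 0.213%. Over the 23 pools mitosis genes had a mean pairwise correlation of 0.72 as deviations from the replicate mean, against 0.01 for all genes measured, and 0.28 among DNA replication genes, of which 2 of 23 passed.

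Interferon response genes stood apart in 1 pool. In Pdx1-MafA cells of the second 6SA culture they took 0.0186 and 0.162% of counts (8.69-fold), and in the other 22 pools without the reporter they took 0.0110 to 0.0264%. Cxcl10, a chemokine induced by interferon (chromosome 5, 92346638 to 92348889, minus strand), was at 17.2 and 1151 CPM in these pools (67.0-fold). Ifit1, an interferon-induced antiviral protein gene, was at 12.8 and 127 CPM (9.93-fold) and its relative Ifit3 at 0 counts and 59.8 CPM, at least 87.1-fold apart. Rsad2, the antiviral gene of viperin, was at 1 count and 546 counts (0.229 and 200 CPM). Ifit2 was at 14.2 and 11.7 CPM (1.21-fold), so the list did not move as a whole. The pool with the high interferon genes is also the one with more Reg1, Reg3b and Cldn6.

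The fibrinogen genes, which encode the 3 chains of the clotting protein made mainly by liver, were high in the same pool in 1 replicate and in different pools in another. In Pdx1-MafA cells of the WT culture Fga was at 43.9 CPM, Fgb at 29.9 CPM and Fgg at 15.9 CPM in pool 2 and each was at 0 counts in the other 2 pools. In MafA cells of the first 6SA culture each was at 0 counts in pool 2, while Fgb was highest in pool 3 (36.9 CPM) and Fgg in pool 1 (9.21 CPM).

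Genes with 50 or more counts that were at 0 counts in at least 1 pool of a replicate numbered 154.6 ± 118 per replicate (SD, n = 8, 16 to 359) with the reporter and 52.6 ± 50.0 (SD, n = 9, 3 to 139) without, a difference of 102 (two-sided exact permutation test, p = 0.0284). This call is lost when any of 4 replicates is left out (6SA Ngn3-MafA replicate 1, 91.2 genes and exact permutation p = 0.0544, 6SA Ngn3-Pdx1 replicate 1, 72.9 and 0.0624, WT Ngn3-Pdx1-MafA, 90 and 0.0552, or Pdx1 cells of the second 6SA culture, 95.9 and 0.0503) and without the 4 replicates whose short genes shifted (64.9 genes, exact permutation p = 0.305). The count depends on the number of pools and on depth: over the first 2 repeats of each replicate it was 66.8 with the reporter and 16.6 without (difference 50.2), and thinned to equal depth 16.4 and 3.67 (difference 12.7), both past the threshold (exact permutation p = 0.00185 and 0.0146). Few such genes recurred. With the reporter 1118 genes were at 0 in a pool of at least 1 replicate, 109 in at least 2 and 10 in 3 (Alox5, Aspa, BC022960, Brca1, Cdc6, Cntnap5b, Dscaml1, Nmu, Ptgs1 and Serpina3n), with none in 4. Without the reporter these were 438, 34 and 1 (Fga). Ptgs1, a prostaglandin synthase gene, was at 0 counts and 31.6 CPM in WT Ngn3-MafA, at least 58.6-fold apart. Serpina3n, a secreted protease inhibitor gene, was at 0, 0 and 67.6 CPM in 6SA Ngn3-Pdx1-MafA, at least 158-fold apart.

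Gene by gene, the pool differences of 11064 genes measured in at least 4 replicates of each kind were compared between replicates with and without the reporter by limma with Benjamini-Hochberg adjustment. No gene passed an adjusted p of 0.05 (0 called, 0%), and the smallest adjusted p was 0.132. At an unadjusted p under 0.05 there were 2191 genes, 2103 of them (19%) with a larger pool difference with the reporter and 88 (0.795%) with a smaller. The median over all genes was 0.17 larger with the reporter. Set against genes of the same level, 594 genes were larger and 468 smaller at an unadjusted p under 0.05. With the difference taken on a log scale, an alternative added after the data were seen, limma called 35 genes, all larger with the reporter. They include Lcn2, Aspa, Ptgs1, Il17re, Pla2g4a and Ugt1a7c (adjusted limma p of 0.0108 to 0.0113), with C3, Cxcl2, Dmbt1 and Il1rn among the rest. Lcn2, for instance, had a mean pool difference of 2.03 with the reporter and 0.33 without. Of the lists, unadjusted p under 0.05 for a larger difference was found in 24 of 36 ribosomal protein genes, 15 of 27 oxidative phosphorylation genes, 9 of 13 inflammatory genes, 11 of 22 immediate early and heat shock genes 8 of 22 duct genes and 9 of 19 DNA replication genes. Among granule and secretion genes it was found in 0 of 10, with 3 of 10 smaller, and the median difference was -0.36. These genes took 0.00812 to 0.0285% of counts without the reporter and 0.513 to 2.43% with it, and low genes differ more by counting alone. Set against genes of like level, the list medians were 0.15 with the reporter (31 genes) and 0.14 without (10 genes).

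The ranking of variable genes recurred in part between cultures. Of the 200 genes with the largest level-adjusted difference, which are 1.81 to 2.14% of the genes compared, each pair of cultures shared 54 to 56 (27 to 28% of each list) with the reporter. Without the reporter pairs shared 23, 50 and 24 (11.5 to 25%). Between replicates with and without the reporter 22 of 200 (11%) were shared. These overlaps are descriptions over genes, which are not independent replicates.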

How the data were processed

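RNA of pools of 50 sorted cells was made into libraries by the Smart-seq2 protocol with Nextera XT and sequenced as single-end reads of 50 bases. Per the labels and the study's methods, the authors aligned reads to mm10 with GSNAP (2015-09-29), assigned them to Ensembl genes (release 81) with HTSeq (0.5.3p3) and deposited whole-number counts per gene and library, not normalized, with technical repeats in separate columns (46078 genes, 45143 of which matched a symbol, and 92 spike-ins). The sources do not say whether strand was used, so overlapping and antisense genes are uncertain, and counts of near-identical copies can be split or lost. Rows for reads without a feature held 6.45 to 23.9% of all reads in the table, ambiguous reads 3.96 to 10.8% and unaligned reads 14.0 to 29.4%, and all stayed out of all totals.

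Here log2 CPM was computed with a prior count of 0.5 on TMM-scaled gene totals in Python 3.11.15 (numpy 2.4.6, pandas 2.3.3, scipy 1.17.1), and genes with 50 or more counts per replicate were used. CPM values and folds in the text are plain CPM on the same TMM-scaled totals. Where a pool had 0 counts, the fold is a lower bound against 3 counts in that pool, and where it had 1 to 3 counts no fold is given. Replicates were compared by two-sided exact permutation tests, genes by limma 3.58.1 (eBayes with trend) in R 4.3.3 with Benjamini-Hochberg adjustment, and edgeR 4.0.16 gave a dispersion per replicate as an alternative. Correlations used 100000 permutations. Exonic lengths and positions are from a GRCm38 annotation. Tested on simulated data for the limma comparison (11046 genes), 48.8% of 86 genes given an added log2 SD of 2 were called, 15.4% of 78 given an SD of 1, and 1 of 10882 others. These shares hold for the simulated data, and whether they carry over to the measured pools was not tested.

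The genes named are the reprogramming factors, the hormones, the 10 most and 5 least variable genes for their level in each kind of replicate, up to 4 extreme members of each of 23 lists (461 genes, 460 matched), and the genes at 0 in a pool of the largest number of replicates (3). Spp1 and Krt19 in 1 replicate, the joint pattern of Reg and fibrinogen genes, Col1a1, C3 and the single interferon genes were chosen after their values were seen. The members and lists were chosen with earlier results of these data known. Replicate numbers come from the labels, and with nothing naming separate animals, p-values measure the spread between these samples. Same-numbered samples deviated from their group means together (10 pairs, r 0.32 to 0.88, median 0.75 over 5000 genes), so each number, a culture, was used as a block in an alternative. Other alternatives were other count minimums (20 and 200), prior counts, scaling, depth limits, thinning to equal depth, leaving out each replicate, and those added after seeing the data: spike-ins, depth and spike-in limits, gene length and a log scale. One duct marker, one immune marker and one transcription factor are not reported here.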

Additional observations from a re-analysis of the deposited data

Results flagged for a closer look

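The median level-adjusted pool difference of each gene list was checked for a replicate far from the others of its kind, among 44 groups of 8 or 9 replicates, and 11 had one. A rate of about 1 in 20 by chance would assume independent groups of equal spread, and these groups share replicates. Except for Pdx1 cells of the WT culture, the replicates that stood apart were of the second 6SA culture. Those had 2 pools each, so their values rest on 1 pair of pools. Whether the number of pools had a part was not tested. Pdx1-MafA cells of the second 6SA culture (2 pools) stood apart for 5 lists: interferon response genes at 1.05 (median of the 9 replicates -0.02), sex-linked genes at 0.75, p53 target genes at 0.44, proteasome genes at 0.30 and, on the low side, immediate early and heat shock genes at -0.32. Pdx1 cells of the second 6SA culture stood apart for ribosomal protein genes at 0.63 and oxidative phosphorylation genes at 0.26, and Pdx1 cells of the WT culture for cholesterol synthesis genes at 0.54. With the reporter, 6SA Ngn3-Pdx1 replicate 2 stood apart for DNA replication genes at 0.78, and 6SA Ngn3-MafA replicate 2 on the low side for duct genes at -0.34 and immediate early and heat shock genes at -0.13.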

How the results depend on the processing

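The larger pool difference with the reporter kept its direction and its call without each replicate in turn (0.149 to 0.222), and so did the fit with a block for each number (exact permutation p = 0.00875). The pairing by number was run for this result, the genes at 0 in a pool and limma's calls, and changed none of the 3 calls. The call was lost in alternatives added after seeing the data: without replicates over 2-fold apart in depth (0.0974, exact permutation p = 0.154), without libraries over 0.2% spike-ins (0.112), on spike-ins alone (0.18), and without the replicates whose short genes shifted (0.0213). On genes minus spike-ins it reversed (-0.0731). Genes at 0 in a pool differed by 72.9 to 122 without each replicate, by 115 without replicates over 2-fold apart in depth and by 64.9 without those with the shift, the last 2 not past the threshold. Limma called 0 to 21 genes without each replicate (21 without 6SA Ngn3-Pdx1 replicate 2, 2 without WT Ngn3-Pdx1) and 35 on the log scale. Over the first 2 repeats the genes at 0 differed by 50.2 and thinned to equal depth by 12.7, both still past the threshold. Genes minus spike-ins was -0.00684 with the reporter alone and 0.0143 to 0.0517 without each replicate. The excess between cultures was 0.23 to 0.306 without each class and 0.211 to 0.268 under the other settings. For Neurog3, leaving out each replicate gave r of 0.612 to 0.928 for granule genes. It was 0.612 without 6SA Ngn3-MafA replicate 1 (permutation p = 0.104, adjusted 0.313) and 0.928 without WT Ngn3-Pdx1 (adjusted permutation p = 0.0235). With thinning rho alone passed (0.78, adjusted permutation p = 0.0431). With the list median endocrine transcription factors gave r of 0.53 (permutation p = 0.0238, adjusted 0.143) and rho of 0.63 (permutation p = 0.0130, adjusted 0.0781). Leaving out each replicate also gave r of -0.153 to 0.0966 for duct genes, -0.214 to 0.169 for hormones and -0.392 to 0.0898 for the spike-in share. Plain totals gave 0.00854 for duct genes and -0.0800 for hormones, log2(CPM + 10) gave -0.0381 for hormones, the 2 farthest pools left out -0.197, and thinning 0.00151 for the spike-in share. Where no value shows it, the cause of these changes was not tested.

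With 1373561 gene counts in the shallowest pool, 3 counts correspond to 2.18 CPM, so absence below that was not detectable. With 2 or 3 pools per replicate, single-gene differences have no replicate of their own within a culture, and sorting, preparation and sequencing cannot be told apart.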
